A study of Mus musculus with 23 samples.

Results

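Single mouse astrocytes that had received the poly-A RNA of cardiomyocytes were compared with mock-transfected astrocytes. The transfer of a whole transcriptome into a host cell is called TIPeR, and the cells that received it are called astroTIPeR here, as in the sample labels. The 6 astroTIPeR cells and the 2 astroControl cells, chosen by their sample titles, made up 8 of the 23 cells of the study, and every control of this kind was used. Expression was followed on all 34945 probe sets, of 45101 on the array, that were annotated with a single gene symbol, and these covered 18193 genes.

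All 8 cells had been cultured in DMEM medium with FBS. AstroTIPeR cells were then transfected with cardiomyocyte poly-A RNA by a lipid reagent, and astroControl cells were mock transfected and received no RNA that the labels name. Each cell was drawn into a glass micropipette, its RNA was amplified, and the product was hybridized to 1 Affymetrix mouse array. The other 15 cells were 5 fibroTIPeR cells (fibroblasts given cardiomyocyte RNA), 3 fibroControl cells (fibroblasts given fibroblast RNA), 4 cardiomyocytes and 3 fibroblasts. The labels give no strain, age, animal or culture, and no time after transfection. The p-values below therefore measure the spread between these cells only, which may be technical in part.

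Astrocytes are glial cells of the brain that take up glutamate through the transporters encoded by Slc1a2 and Slc1a3, recycle it through glutamine synthetase (Glul) and carry the intermediate filament protein Gfap. Cardiomyocytes contract through sarcomeres built of myosin, actin, troponin and titin, with calcium released and taken up again by Ryr2 and Atp2a2. RNA delivered into a cell may be translated or degraded, so that a donor transcript seen on an array can be delivered RNA or RNA made by the host, and the array does not tell these apart. The study asked whether a transferred transcriptome can change one cell type towards another.

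Levels are log2 values, quantile normalized within the 8 astrocyte arrays. The mean of each probe set over the 8 cells was taken. Over all 34945 probe sets these means had a median of 4.43 and 10th and 90th percentiles of 2.89 and 8.79, called the median and percentiles of the scale below. Detection calls were not used here, so a low level is not called absent. A difference is astroTIPeR minus astroControl, and 1 unit is a 2-fold change. A probe set was called when its adjusted p in limma's moderated test (Benjamini-Hochberg over all 34945 probe sets) was under 0.05. The 95% interval of a difference, before adjustment for many tests, reached a median of 1.65 to either side. Smaller differences were mostly not detectable with 2 control cells, and many larger ones did not pass the adjusted threshold either. Mras, for example, differed by 5.88 and was not called (adjusted p = 0.075 in limma). A list without a call can therefore hold large differences.

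The 2 control cells were unlike each other. The 6 astroTIPeR cells correlated with each other at 0.801 to 0.918 (mean 0.859 over 15 pairs), and astroControl 1 correlated with them at 0.820 to 0.834. AstroControl 2 stood apart, at 0.706 to 0.740 with the astroTIPeR cells and 0.709 with the other control. The level of the B1 repeat probe set ran from 4.67 to 8.10 in astroTIPeR cells, against 5.72 in astroControl 1 and 11.23 in astroControl 2. The Gapdh control probe sets, which compare the 3' with the 5' end of a transcript, differed by 3.23 to 5.63 in astroTIPeR cells, against 1.68 and 2.88 in astroControl cells. These ranges did not overlap, and an exact two-sided permutation test over the 28 splits gave p = 0.0357, the smallest possible (adjusted p = 0.25 over 7 library measures). The 18S and B2 levels overlapped between the groups.

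**Figure D1:**
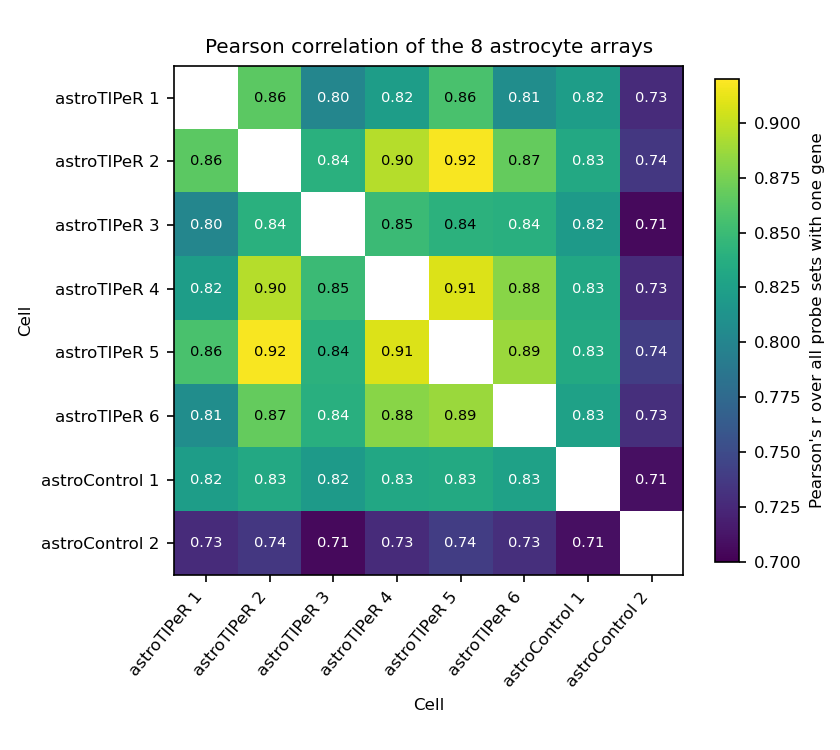
Pearson correlations between the 8 astrocyte arrays over 34945 probe sets, with cells along both axes and colour standing for r. The 6 astroTIPeR cells and astroControl 1 lie between 0.801 and 0.918 of each other, and the row of astroControl 2 lies between 0.706 and 0.740.

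Few genes separated the groups. In limma, 22 of the 34945 probe sets (0.063%) were called, 13 higher in astroTIPeR cells (0.0372%) and 9 lower (0.0258%), and in all 22 the groups did not overlap. Non-overlap alone was common: 3864 probe sets (11.1%) had no overlap between the 6 and the 2 cells, 2104 higher (6.02%) and 1760 lower (5.04%), and 3985 (11.4%) had an unadjusted p under 0.05. The count rested on the control cells. Without astroControl 1 the test called 1832 probe sets (5.24%), 348 higher and 1484 lower, which included all 22. Without astroControl 2 it called 12 (0.0343%), which included 5 of the 22 (Arhgef25, Wdr43, Ank1, Scn9a and Hyal5). All 22 kept their direction without either control, which was fixed in advance because their groups did not overlap. In these fits the lone control was assumed to vary like the astroTIPeR cells.

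Among the genes that rose were several of the cell surface. Cldn2, which encodes the pore-forming tight junction protein claudin-2, had the largest rise. Its lowest, median and highest levels were 8.93, 11.59 and 11.97 in astroTIPeR cells, against 7.80 and 3.94 in astroControl cells (difference 5.34 ± 0.91 SE, adjusted p = 0.0461 in limma). AstroControl 2 was the lower control, and without it the difference was 3.41 (adjusted p = 0.264). Chrnb3, a subunit of neuronal nicotinic acetylcholine receptors, ran from 9.36 to 10.67 (median 9.88) in astroTIPeR cells, against 5.41 and 4.71 in astroControl cells (difference 4.86 ± 0.71 SE, adjusted p = 0.0196). Both controls were low for this gene, and the groups were more than 3 units apart.

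Pdgfrb, the receptor for platelet-derived growth factor that marks pericytes and mesenchymal cells, ran from 11.41 to 12.59 (median 12.30) in astroTIPeR cells, against 9.42 and 9.29 in astroControl cells (difference 2.77 ± 0.36 SE, adjusted p = 0.016). It stayed past the threshold in 6 of the 8 fits that left out a cell. The exceptions included the fit without astroControl 2, where the difference was 2.7 (adjusted p = 0.0635). Cd209d, a C-type lectin of the DC-SIGN family, ran from 10.36 to 12.14 (median 11.47) in astroTIPeR cells, against 8.18 and 7.04 in astroControl cells (difference 3.78 ± 0.52 SE, adjusted p = 0.016). Ank1, an ankyrin that ties membrane proteins to the spectrin skeleton, had the smallest rise. Its levels were 14.43, 14.68 and 14.82 at the lowest, median and highest in astroTIPeR cells, against 13.73 and 14.19 in astroControl cells (difference 0.70 ± 0.11 SE, adjusted p = 0.0262). It ranked below the 12 rises that the rule named and was added after its values were seen.

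Arhgef25, Arhgap17 and Ift88 rose as well. Arhgef25 was nearly level over the astroTIPeR cells, with 11.09, 11.38 and 11.55 as lowest, median and highest, against 8.29 and 3.98 in astroControl cells (difference 5.21 ± 0.78 SE, adjusted p = 0.0209). Without astroControl 2 the difference was 3.05 (adjusted p = 0.0256). Arhgap17 ran from 9.68 to 11.12 (median 10.33) in astroTIPeR cells, against 6.21 and 5.37 in astroControl cells (difference 4.59 ± 0.65 SE, adjusted p = 0.0168). Ift88, a carrier protein needed to build cilia, ran from 9.22 to 10.49 (median 10.18) in astroTIPeR cells, against 5.58 and 4.96 in astroControl cells (difference 4.77 ± 0.68 SE, adjusted p = 0.0168). For Arhgap17 and Ift88 both controls lay over 3 units below the lowest astroTIPeR cell.

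The other 5 genes that rose were Wdr43, Orc2, Psme3, Atxn7l1 and 9930012K11Rik. Wdr43, which takes part in making the small ribosomal subunit, ran from 9.96 to 11.10 (median 10.29) in astroTIPeR cells, against 5.58 and 7.45 in astroControl cells (difference 3.88 ± 0.65 SE, adjusted p = 0.0437). Orc2, a subunit of the complex that marks DNA replication origins, ran from 9.88 to 10.96 (median 10.53) in astroTIPeR cells, against 6.96 and 7.49 in astroControl cells (difference 3.26 ± 0.56 SE, adjusted p = 0.0463). Psme3, a nuclear activator of the proteasome, was high in all cells and differed little between them. Its level was 14.37, 14.44 and 14.54 at the lowest, median and highest in astroTIPeR cells, against 13.85 and 13.06 in astroControl cells (difference 0.99 ± 0.14 SE, adjusted p = 0.016). Without astroControl 2 the difference was 0.60 (adjusted p = 0.0504). Atxn7l1, a relative of the ataxin-7 gene, ran from 12.68 to 13.18 (median 12.86) in astroTIPeR cells, against 11.68 and 10.71 in astroControl cells (difference 1.70 ± 0.23 SE, adjusted p = 0.016). The gene 9930012K11Rik, given without a role here, ran from 9.88 to 10.68 (median 10.52) in astroTIPeR cells, against 7.50 and 6.73 in astroControl cells (difference 3.32 ± 0.55 SE, adjusted p = 0.0437).

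Hyal5, a hyaluronidase known from mouse sperm, fell most. Its levels were 2.86, 3.32 and 4.88 at the lowest, median and highest in astroTIPeR cells, against 10.32 and 8.84 in astroControl cells (difference -5.88 ± 0.88 SE, adjusted p = 0.0209). Col19a1, a collagen of basement membrane zones, ran from 2.24 to 4.42 (median 3.85) in astroTIPeR cells, against 7.90 and 9.30 in astroControl cells (difference -4.94 ± 0.82 SE, adjusted p = 0.0437). Both genes act on the extracellular matrix. The sodium channel gene Scn9a ran from 1.20 to 3.18 (median 2.43) in astroTIPeR cells, against 8.41 and 6.66 in astroControl cells (difference -5.22 ± 0.68 SE, adjusted p = 0.016). This fall stayed past the threshold in 7 of the 8 fits that left out a cell, the most of the 22. A second Scn9a probe set went the other way, at 9.63 to 11.17 in astroTIPeR cells, against 4.71 and 9.93 in astroControl cells (difference 3.26, adjusted p = 0.226). Without astroControl 2 both probe sets were called, the first at -6.09 and the second at 5.87 (adjusted p = 0.0169 for each), so the array gives no single direction for Scn9a.

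Another 3 genes that fell encode nuclear regulators. Crebbp, the CBP histone acetyltransferase and transcriptional coactivator, ran from 3.45 to 4.47 (median 3.85) in astroTIPeR cells, against 8.26 and 10.99 in astroControl cells (difference -5.67 ± 0.88 SE, adjusted p = 0.0271). The transcription factor gene Sox7, known from endothelial development, ran from 2.24 to 3.07 (median 2.67) in astroTIPeR cells, against 6.56 and 6.48 in astroControl cells (difference -3.86 ± 0.57 SE, adjusted p = 0.0196). Lcorl, a relative of the nuclear receptor corepressor Lcor, ran from 1.26 to 2.20 (median 1.83) in astroTIPeR cells, against 4.71 and 4.93 in astroControl cells (difference -3.10 ± 0.53 SE, adjusted p = 0.0471). For Sox7 and Lcorl the controls were close to each other, and even the control levels lay in the lower or middle part of the scale.

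The last 3 falls belonged to a membrane lectin and to proteins of organelles. Clec2h, a C-type lectin-related membrane protein, ran from 1.26 to 2.82 (median 1.85) in astroTIPeR cells, against 4.71 and 7.68 in astroControl cells (difference -4.28 ± 0.73 SE, adjusted p = 0.0461). Without astroControl 2 the difference was -2.79 (adjusted p = 0.303). Acer3, an alkaline ceramidase, ran from 1.90 to 4.18 (median 2.75) in astroTIPeR cells, against 6.96 and 6.44 in astroControl cells (difference -3.87 ± 0.66 SE, adjusted p = 0.0461). Rmnd1, which is needed for translation in mitochondria, ran from 1.93 to 3.29 (median 2.90) in astroTIPeR cells, against 6.09 and 6.76 in astroControl cells (difference -3.68 ± 0.61 SE, adjusted p = 0.0437).

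**Figure D2:**
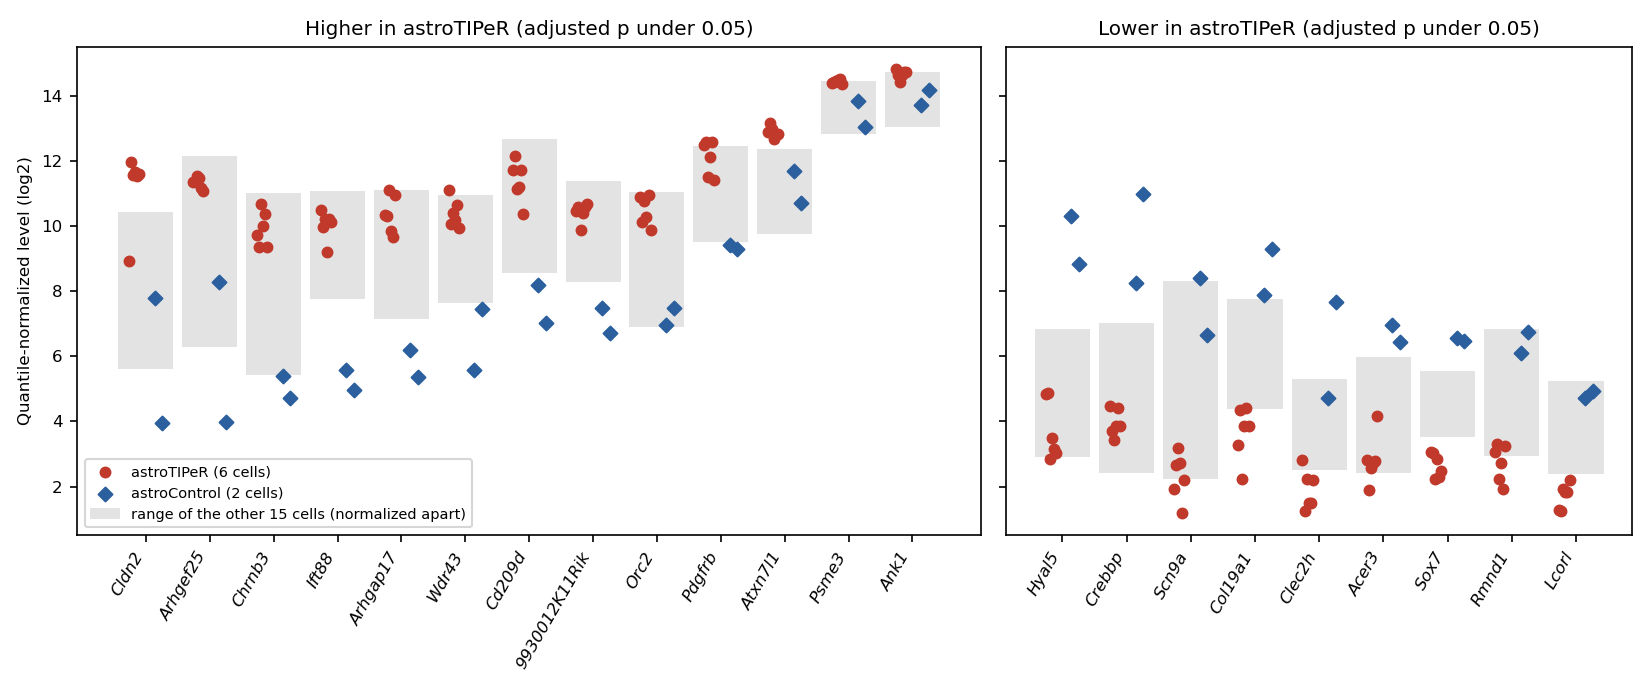
Levels (log2, vertical axis) of the 22 called probe sets by gene (horizontal axis), with 1 red point for each of 6 astroTIPeR cells, 1 blue diamond for each of 2 astroControl cells, and a grey bar for the range of the other 15 cells, normalized apart. The red and blue points do not overlap for any of the 22 genes. In 12 of them both controls lie outside the grey range, a count not taken over all probe sets.

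The calls rested on single probe sets. Of the 22 genes, 6 had no other probe set on the array, and the other 16 had 40 more. None of those 40 was called, and 26 had the same sign as the called one. Differences of opposite sign reached 3.26 for Scn9a, 2.91 for Lcorl, 1.52 for Crebbp and -1.17 for Ank1. The only other probe set of Pdgfrb was at -0.11, against its rise. The probe sets of Scn9a and Atxn7l1 carry the x_at suffix and that of Wdr43 the s_at suffix, which mark probes that can match more than 1 transcript. When 1 cell was left out in turn, 0 of the 22 calls survived every omission and 5 survived in at least 5 of 8 (Scn9a, Pdgfrb, Atxn7l1, Cd209d and Psme3).

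The other 15 cells show on which side of the 2 controls each called gene usually lay. The 2 sets of arrays were normalized apart, so this comparison is a description. Deposited medians were 4.28 to 4.56 on the 8 astrocyte arrays and 5.05 to 5.58 on the other 15. The counts below were not taken over all probe sets, so they do not show that the controls were unusual for these genes. For 8 of the 13 genes that rose and 8 of the 9 that fell, the median of the 15 fibroblasts and cardiomyocytes was nearer to the astroTIPeR mean than to the astroControl mean. In 7 of the 13 genes that rose (Chrnb3, Ift88, Arhgap17, Wdr43, Cd209d, 9930012K11Rik and Pdgfrb) both controls were below every one of the other 15 cells. In 5 of the 9 that fell (Hyal5, Crebbp, Col19a1, Acer3 and Sox7) both controls were above all 15. The reverse, with all 6 astroTIPeR cells beyond the range of the 15, held for Atxn7l1, Sox7 and Lcorl alone. These 22 genes were chosen for their difference, and 2 cells lie beyond a range together more easily than 6 do, so the counts of both groups are not compared.

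The start regions of 3 called genes are given here as the largest rise, the largest fall and the fall that stayed past the threshold most often. They run from 250 bases before to 50 bases after the transcription start, 5′ to 3′ on the gene's strand, from RefSeq on GRCm38.p6. They were searched on both strands for TATAAA (the TATA box) and CCAAT, which do not overlap each other, and matches are in capitals. Cldn2 lies at chrX:139800558-139800857 on the plus strand, Hyal5 at chr6:24857747-24858046 on the plus strand and Scn9a at chr2:66634913-66635212 on the minus strand.
Cldn2: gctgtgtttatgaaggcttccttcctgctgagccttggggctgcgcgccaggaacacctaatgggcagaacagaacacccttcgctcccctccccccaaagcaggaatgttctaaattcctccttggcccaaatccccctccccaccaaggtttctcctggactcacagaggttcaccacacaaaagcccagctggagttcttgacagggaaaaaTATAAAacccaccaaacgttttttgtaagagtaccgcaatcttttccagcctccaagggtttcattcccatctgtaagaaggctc
Hyal5: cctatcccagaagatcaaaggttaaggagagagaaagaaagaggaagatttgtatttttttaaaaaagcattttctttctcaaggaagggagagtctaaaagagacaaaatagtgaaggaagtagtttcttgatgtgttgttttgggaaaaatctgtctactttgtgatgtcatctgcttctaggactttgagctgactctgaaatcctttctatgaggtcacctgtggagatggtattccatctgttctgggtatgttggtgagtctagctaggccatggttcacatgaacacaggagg
Scn9a: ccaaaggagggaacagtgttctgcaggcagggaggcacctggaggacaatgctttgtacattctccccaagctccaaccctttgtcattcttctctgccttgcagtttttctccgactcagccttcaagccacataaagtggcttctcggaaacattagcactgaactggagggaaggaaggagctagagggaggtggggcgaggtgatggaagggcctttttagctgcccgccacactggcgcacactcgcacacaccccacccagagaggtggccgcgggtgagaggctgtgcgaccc
Cldn2 held TATAAA, and neither run of letters was found in the windows of Hyal5 and Scn9a. RefSeq windows were at hand for 16 of the 22 called genes, 23 windows in all. TATAAA was in 1 of the 23, against 13.6% of all 32851 windows. CCAAT was in 5 of the 23, in windows of Arhgap17, Ift88, Orc2 and Psme3, against 37.4% of all windows. A match is a run of letters and not a shown binding site.

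Genes of the donor cell type were next followed in the astrocytes. Cardiomyocytes were set against untreated fibroblasts, a comparison that shares no array with the astrocytes, and 29 probe sets (0.083%) were called, 11 higher in cardiomyocytes (0.0315%) and 18 lower. That count was 2 to 19 with 1 of the 7 cells left out. The 11 stood for 10 genes, among them Tnni3, Mybpc3, Myl2, Myom2 and Myoz2 of the sarcomere, Dsp of the intercalated disc, and Lpl and Plin5 of lipid use. None of the 11 was called in astroTIPeR cells against astroControl cells, and none separated the groups without overlap, where 11.1% of all probe sets did. Their median difference was 0.41, beside 0.05 over all probe sets, and 7 of the 11 were above 0. The 18 probe sets lower in cardiomyocytes had a median difference of 0.46 with 12 of 18 above 0, also above that of all probe sets. Without astroControl 1 the median was 0.57 and without astroControl 2 it was 0.30, with 0 of 11 called in either fit.

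Tnni3, the cardiac inhibitory troponin subunit, was the gene that marked cardiomyocytes most clearly, at 10.55 to 12.69 in cardiomyocytes. It ran from 3.29 to 4.12 (median 3.78) in astroTIPeR cells, against 3.48 and 1.93 in astroControl cells, with a difference of 1.07 (95% interval -0.19 to 2.34, adjusted p = 0.522). All these levels were under the median of the scale. Myl2, the ventricular myosin light chain, ran from 1.28 to 4.48 (median 2.53) in astroTIPeR cells, against 3.48 and 2.29 in astroControl cells, and from 8.70 to 10.52 in cardiomyocytes. For 10 of the 11 probe sets, every astroTIPeR cell was below the lowest cardiomyocyte, again over sets normalized apart. Lpl, lipoprotein lipase, was the exception, at 4.88 to 11.02 (median 10.03) in astroTIPeR cells and 6.86 and 9.11 in astroControl cells, against 9.68 to 11.64 in cardiomyocytes.

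The sarcomere genes gave no call. Of 30 listed, 29 were measured and 0 called, with a median difference of -0.13 beside 0.07 over all genes. Without astroControl 1 that median was 0.02, and without astroControl 2 it was 0.07. The myosin heavy chain gene Myh6 ran from 2.58 to 5.39 (median 4.05) in astroTIPeR cells, against 3.16 and 3.70 in astroControl cells. Its range in cardiomyocytes was 9.95 to 11.71. Myh7, the other cardiac heavy chain, stayed at 2.24 to 4.17 in astroTIPeR cells, against 1.91 and 3.26 in astroControl cells. Its range in cardiomyocytes was 2.94 to 7.44, so it did not mark the donor cells clearly. The cardiac actin gene Actc1 ran from 3.21 to 5.75 (median 4.52) in astroTIPeR cells, against 4.71 and 1.48 in astroControl cells (difference 1.42, 95% interval -0.43 to 3.26). Tnnt2, the troponin that binds tropomyosin, has 2 other probe sets, and the one of highest mean level in the astrocytes gave 4.84 to 5.47 in cardiomyocytes, 4.29 to 6.76 in astroTIPeR cells and 4.03 and 4.46 in astroControl cells. The smallest p of the list belonged to Des, the muscle intermediate filament gene, at 4.31 to 5.94 (median 4.73) in astroTIPeR cells, against 7.90 and 9.87 in astroControl cells (difference -3.89, adjusted p = 0.156).

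Genes of calcium handling and excitability gave no call either (0 of 23 measured, median difference 0.44). Atp2a2, the calcium pump of the sarcoplasmic reticulum, ran from 4.57 to 7.98 (median 6.98) in astroTIPeR cells, against 5.98 and 5.38 in astroControl cells. Cardiomyocytes held it at 11.55 to 12.93. Ryr2, the calcium release channel, ran from 2.73 to 5.05 (median 3.52) in astroTIPeR cells, against 2.79 and 8.05 in astroControl cells. The higher mean of the controls thus came from astroControl 2. Ryr2 was at only 5.03 to 5.88 in cardiomyocytes. Cacna1c, the L-type calcium channel, was high in astroTIPeR 2 alone, at 9.33, with 3.66 to 6.10 in the other astroTIPeR cells and 1.91 and 4.48 in astroControl cells. Slc8a1, the sodium-calcium exchanger, ran from 10.36 to 11.27 in astroTIPeR cells, against 10.16 and 10.22 in astroControl cells (difference 0.65, adjusted p = 0.571).

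Cardiac transcription factors were measured for 24 of 25 genes, with 0 called and a median difference of 0.25 (0.58 without astroControl 1 and -0.02 without astroControl 2). Mef2c, a factor of muscle and of other tissues, did not overlap between the groups, at 7.07 to 10.08 (median 9.03) in astroTIPeR cells and 6.86 and 6.68 in astroControl cells (difference 2.21 ± 0.86 SE, adjusted p = 0.345). Of its 4 other probe sets only 2 had the same sign. Another Mef2c probe set fell, from a mean of 6.75 in astroControl cells to 3.32 in astroTIPeR cells (difference -3.43, adjusted p = 0.157 in limma). The array thus gives no single direction for Mef2c. Non-overlap was seen in 4 of the 24 (16.7%), against 11.7% of all genes. Gata6 ran from 10.30 to 11.32 in astroTIPeR cells, against 10.36 and 6.74 in astroControl cells (difference 2.37, adjusted p = 0.229). Gata4 ran from 5.70 to 7.98 in astroTIPeR cells, against 8.98 and 5.95 in astroControl cells. Nkx2-5 spread over 5.86 to 10.87 in astroTIPeR cells, against 6.33 and 9.76 in astroControl cells, and stood at 7.04 to 11.33 over the other 15 cells. Tbx5 ran from 5.66 to 8.64 in astroTIPeR cells, against 6.44 and 5.38 in astroControl cells, and Hand2 from 5.22 to 7.71 in astroTIPeR cells, against 6.33 and 4.64 in astroControl cells. The groups overlapped for each of these factors except Mef2c.

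Of heart metabolism and hormone genes, 24 of 25 were measured and 0 called (median difference -0.06). Nppa, the atrial natriuretic peptide gene, stayed at 2.73 to 3.89 in astroTIPeR cells, against 2.79 and 4.26 in astroControl cells. Cardiomyocytes themselves were at only 3.23 to 5.97, so this probe set says little of donor RNA. Pdk4, a kinase that restrains pyruvate use, ran from 3.03 to 5.66 (median 5.28) in astroTIPeR cells, against 6.44 and 11.14 in astroControl cells (difference -3.82, adjusted p = 0.24). Corin, the protease that activates Nppa peptide, ran from 1.90 to 3.26 in astroTIPeR cells, against 5.07 and 3.21 in astroControl cells. Over the 4 cardiac lists together 100 genes were measured, 57 had a difference above 0, the median difference was 0.21, and 8 (8%) did not overlap between the groups. That share is below the 11.7% of all genes.

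**Figure D3:**
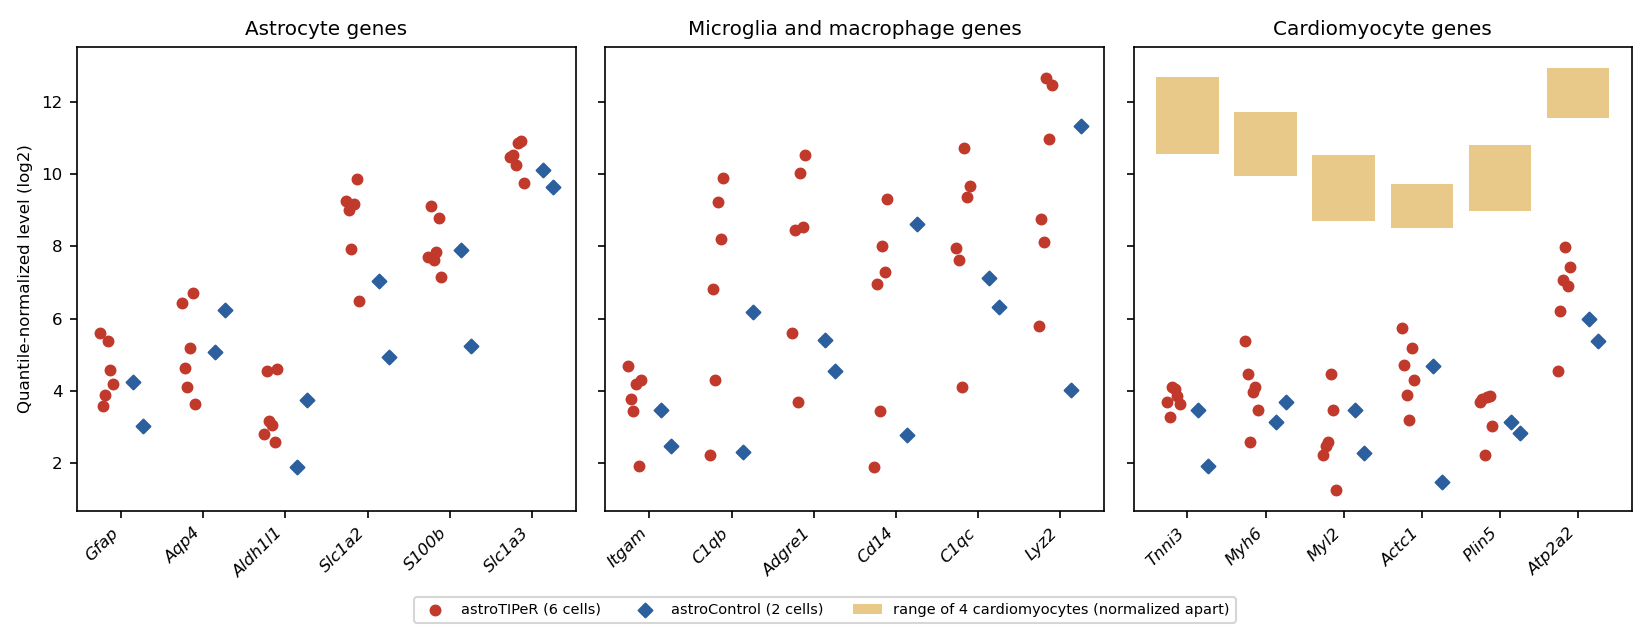
Levels (log2, vertical axis) of 6 astrocyte, 6 microglia and macrophage, and 6 cardiomyocyte genes (horizontal axis), with red points for the 6 astroTIPeR cells, blue diamonds for the 2 astroControl cells and tan bars for the range of 4 cardiomyocytes, normalized apart. Tnni3 and Myh6 stay under 6 in all 8 astrocytes while cardiomyocytes are at 9.95 or above, and C1qb spreads over 2.22 to 9.90 among astroTIPeR cells.

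The astrocyte label was then set against its markers. All 30 listed astrocyte genes were measured and 0 were called (median difference 0.28). The defining gene Gfap was low, at 3.59 to 5.6 (median 4.38) in astroTIPeR cells and 4.26 and 3.03 in astroControl cells. Aldh1l1, a folate enzyme used as a pan-astrocyte marker, was at 2.60 to 4.61 in astroTIPeR cells and 1.91 and 3.75 in astroControl cells. The water channel gene Aqp4 was at 3.66 to 6.72 in astroTIPeR cells and 5.07 and 6.25 in astroControl cells. All 3 stayed under the 90th percentile of the scale (8.79) in all 8 cells, and Aldh1l1 was under its 10th percentile in some of them. Most probe sets lie under the 90th percentile, and Aqp4 was above the median of the scale (4.43) in both controls. Of all 30 listed astrocyte genes, 5 were above the 90th percentile in all 8 cells and 1 was under the median in all 8. These counts were not taken over all genes. The 3 markers do not bear out the astrocyte label, and the list as a whole does not decide on it.

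Other astrocyte genes reached high levels in some or all of the 8 cells, but not in astrocytes alone. The glutamate transporter Slc1a3 was at 9.74 to 10.91 in astroTIPeR cells and 10.10 and 9.65 in astroControl cells, with 7.54 to 10.99 over the other 15 cells. S100b was at 7.16 to 9.12 in astroTIPeR cells and 7.90 and 5.24 in astroControl cells, with 5.34 to 10.49 over the others. Over all genes, 2074 were above 9 in all 8 astrocytes, and 55.4% of them were above 9 with a range under 2 in all 23 cells. A high level of such a probe set does not tell cell types apart. Of the 30 astrocyte genes only 2 were of this kind, beside 6.32% of all genes, and Slc1a3 and S100b were not among them. For all 30 astrocyte genes, the mean of the 4 cardiomyocytes was within 2 units of the astroTIPeR mean. This count was not taken over all genes, and the 2 sets of arrays were normalized apart.

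Within the astrocyte list the smallest p belonged to Acsl6 and Slc1a2. Acsl6, a fatty acyl-CoA synthetase, ran from 9.31 to 11.04 (median 10.31) in astroTIPeR cells, against 9.0 and 7.02 in astroControl cells (difference 2.18, adjusted p = 0.255). It was the only one of the 30 (3.33%) without overlap, beside 11.7% of all genes. Slc1a2 ran from 6.49 to 9.87 (median 9.09) in astroTIPeR cells, against 7.05 and 4.96 in astroControl cells (difference 2.62 ± 1.0 SE, adjusted p = 0.334). Glul ran from 4.53 to 9.72 (median 7.48) in astroTIPeR cells, against 6.09 and 4.76 in astroControl cells. Vim, the filament gene of cultured glia, ran from 9.56 to 14.08 (median 13.30) in astroTIPeR cells, against 11.48 and 12.40 in astroControl cells.

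Reactive and cultured astrocyte genes gave 0 calls of 19 measured (median difference 0.33). The transcription factor gene Stat3 ran from 6.21 to 10.86 (median 9.03) in astroTIPeR cells, against 4.90 and 5.82 in astroControl cells, without overlap (difference 3.72 ± 1.07 SE, adjusted p = 0.216). Non-overlap held for 2 of the 19 (10.5%), 1 higher and 1 lower, beside 11.7% of all genes. Igfbp2, an IGF-binding protein, ran from 1.93 to 5.19 in astroTIPeR cells, against 6.33 and 5.84 in astroControl cells (difference -2.47, adjusted p = 0.294). Of the neural progenitor list 0 of 15 were called (median difference -0.02), and Hes5, a Notch target, was at 2.78 to 4.18 in astroTIPeR cells and 5.85 and 4.29 in astroControl cells.

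Other cells of a brain culture were followed by their own lists. Microglia and macrophage genes varied widely from cell to cell. Their standard deviation over the astroTIPeR cells had a median of 1.29, beside 0.82 over all genes. None of 18 was called, 15 had a difference above 0, and the median difference was 0.59 (0.13 without astroControl 1 and 0.92 without astroControl 2). The mean level of the list ran from 6.38 to 8.69 in astroTIPeR cells, against 6.08 and 7.23 in astroControl cells. The means of the lysosome list (6.10 to 8.77) and the ribosomal list (6.26 to 8.74) spread as widely over the astroTIPeR cells. The range within the astroTIPeR cells was over 4 units for 9 of the 18 microglia and macrophage genes, a count not taken over all genes. Lyz2, the macrophage lysozyme, was at 5.80, 8.75, 8.13, 12.64, 10.96 and 12.47 in astroTIPeR 1 to 6, against 4.03 and 11.33 in astroControl 1 and 2. C1qb, a subunit of complement C1q, was at 2.22, 6.84, 4.31, 9.24, 8.19 and 9.90 in the same order, against 2.32 and 6.18 in the controls.

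Adgre1, which encodes the macrophage surface protein F4/80, was at 5.6, 8.46, 3.69, 10.02, 8.54 and 10.52 in astroTIPeR 1 to 6, against 5.41 and 4.56 in the controls (difference 2.82, adjusted p = 0.5). AstroTIPeR 4, 5 and 6 were thus high for Lyz2, C1qb and Adgre1, and astroTIPeR 1 and 3 were lower. The defining genes Itgam (1.93 to 4.71 in astroTIPeR cells, 3.48 and 2.49 in astroControl cells) and P2ry12 (2.50 to 3.78 in astroTIPeR cells, 5.41 and 3.48 in astroControl cells) were low in all 8. Whether RNA of other cells takes part in the differences above was not tested.

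Of the endothelial and pericyte list 1 of 16 rose, Pdgfrb, and the median difference was -0.53, the lowest of the lists. It was -0.14 without astroControl 1 and 0.10 without astroControl 2, where the sign turned. Rgs5, a pericyte gene, was at 7.64 to 10.19 (median 9.0) in astroTIPeR cells and 6.56 and 6.66 in astroControl cells, without overlap (difference 2.41, adjusted p = 0.297). Oligodendrocyte lineage genes gave 0 calls of 14. Cldn11, the tight junction gene of myelin, was at 7.86 to 9.71 (median 8.74) in astroTIPeR cells and 5.72 and 3.70 in astroControl cells (difference 3.97 ± 0.91 SE, adjusted p = 0.143). Olig2, the lineage factor, was at 2.32 to 3.24 in astroTIPeR cells and 4.48 and 5.21 in astroControl cells (difference -2.15, adjusted p = 0.178). The 2 genes differed in opposite directions, each without overlap. Non-overlap held for 3 of the 14 oligodendrocyte lineage genes (21.4%) and 3 of the 16 endothelial and pericyte genes (18.8%), beside 11.7% of all genes.

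Neuron genes gave 0 calls of 20 (median difference 0.11), and the synaptic vesicle gene Syp was at 11.25 to 11.85 in astroTIPeR cells and 10.42 and 10.93 in astroControl cells (difference 0.83, adjusted p = 0.316). Ependymal and choroid plexus genes gave 0 of 12, skeletal muscle genes 0 of 20, smooth muscle and stress fibre genes 0 of 20, and fibroblast and matrix genes 0 of 29. In the last list Lox, which crosslinks collagen, was at 5.6 to 10.48 (median 9.50) in astroTIPeR cells and 5.72 and 4.12 in astroControl cells (difference 4.09 ± 1.14 SE, adjusted p = 0.207). Postn, a matrix protein gene of heart and bone, was at 1.93 to 3.48 in astroTIPeR cells and 3.16 and 6.98 in astroControl cells.

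Foreign RNA can set off interferon genes through cytoplasmic sensors. Of 36 listed, 32 were measured and 0 called (median difference 0.30), and 5 (15.6%) did not overlap between the groups, 4 higher and 1 lower, beside 11.7% of all genes. Rsad2, the antiviral protein viperin, was at 3.60 to 8.98 (median 5.71) in astroTIPeR cells and 3.16 and 2.74 in astroControl cells (difference 2.84 ± 1.16 SE, adjusted p = 0.367). Oas2, an RNA sensor of the oligoadenylate synthetases, was at 3.07 to 4.90 in astroTIPeR cells and 4.90 and 7.81 in astroControl cells (difference -2.34, adjusted p = 0.31). The mean level of the list was 5.76 to 6.14 in astroTIPeR cells and 5.75 and 5.68 in astroControl cells, without overlap. The mean levels of the calcium handling list (5.54 to 5.84 in astroTIPeR cells, 5.20 and 5.52 in astroControl cells) and of the RNA decay list (6.79 to 7.12 in astroTIPeR cells, 6.68 and 6.64 in astroControl cells) did not overlap either. These were the only ones of 26 lists whose means lay apart. For the interferon list the gap was from 5.75 to 5.76. Whether it reflects a response to the RNA was not tested.

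RNA decay and surveillance genes gave 0 calls of 32 (median difference 0.20). Skiv2l, a helicase that feeds the cytoplasmic exosome, was at 2.78 to 3.70 (median 3.31) in astroTIPeR cells and 5.72 and 6.88 in astroControl cells (difference -3.03 ± 0.63 SE, adjusted p = 0.111). Lsm1, a subunit of the decapping activator ring, was at 2.29 to 5.21 in astroTIPeR cells and 5.41 and 5.93 in astroControl cells (difference -2.37, adjusted p = 0.26). Both were higher in the 2 astroControl cells without overlap. Of the 32 genes, 4 (12.5%) did not overlap, 2 higher and 2 lower in astroTIPeR cells, beside 11.7% of all genes. Stress genes gave 0 of 23, with Atf4, a translation stress factor, at 11.05 to 11.64 in astroTIPeR cells and 10.77 and 10.30 in astroControl cells (difference 0.73, adjusted p = 0.423).

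Immediate early genes, which respond fast to signals, gave 0 of 24 (median difference 0.42). Egr3 was at 5.07 to 6.02 in astroTIPeR cells and 1.91 and 4.26 in astroControl cells (difference 2.35, adjusted p = 0.283), and Jun at 7.81 to 10.18 in astroTIPeR cells and 6.21 and 8.19 in astroControl cells (difference 2.23, adjusted p = 0.315). The apoptosis list gave 0 of 20, with the BH3-only gene Bcl2l11 at 8.98 to 10.31 in astroTIPeR cells and 8.85 and 5.74 in astroControl cells. Of the chromatin list 1 of 34 fell, Crebbp. The acetyltransferase Kat2a was at 10.83 to 12.55 in astroTIPeR cells and 11.71 and 7.90 in astroControl cells (difference 2.04, adjusted p = 0.287).

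Cell cycle genes gave 0 of 29, cytosolic ribosomal proteins 0 of 44, oxidative phosphorylation 0 of 61, lysosome and endocytic uptake 0 of 25 and housekeeping genes 0 of 14. Several of these medians turned on the controls. The ribosomal list had a median difference of 0.10 with both controls, 1.13 without astroControl 1 and -0.45 without astroControl 2. The housekeeping median was 0.30, 0.72 without astroControl 1 and -0.05 without astroControl 2. Among oxidative phosphorylation genes Ndufb4 was at 3.66 to 6.10 in astroTIPeR cells and 6.09 in astroControl 1, against 11.08 in astroControl 2. Cyc1, cytochrome c1, was at 4.72 to 6.10 in astroTIPeR cells and 6.33 in astroControl 1, against 10.01 in astroControl 2.

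**Figure D4:**
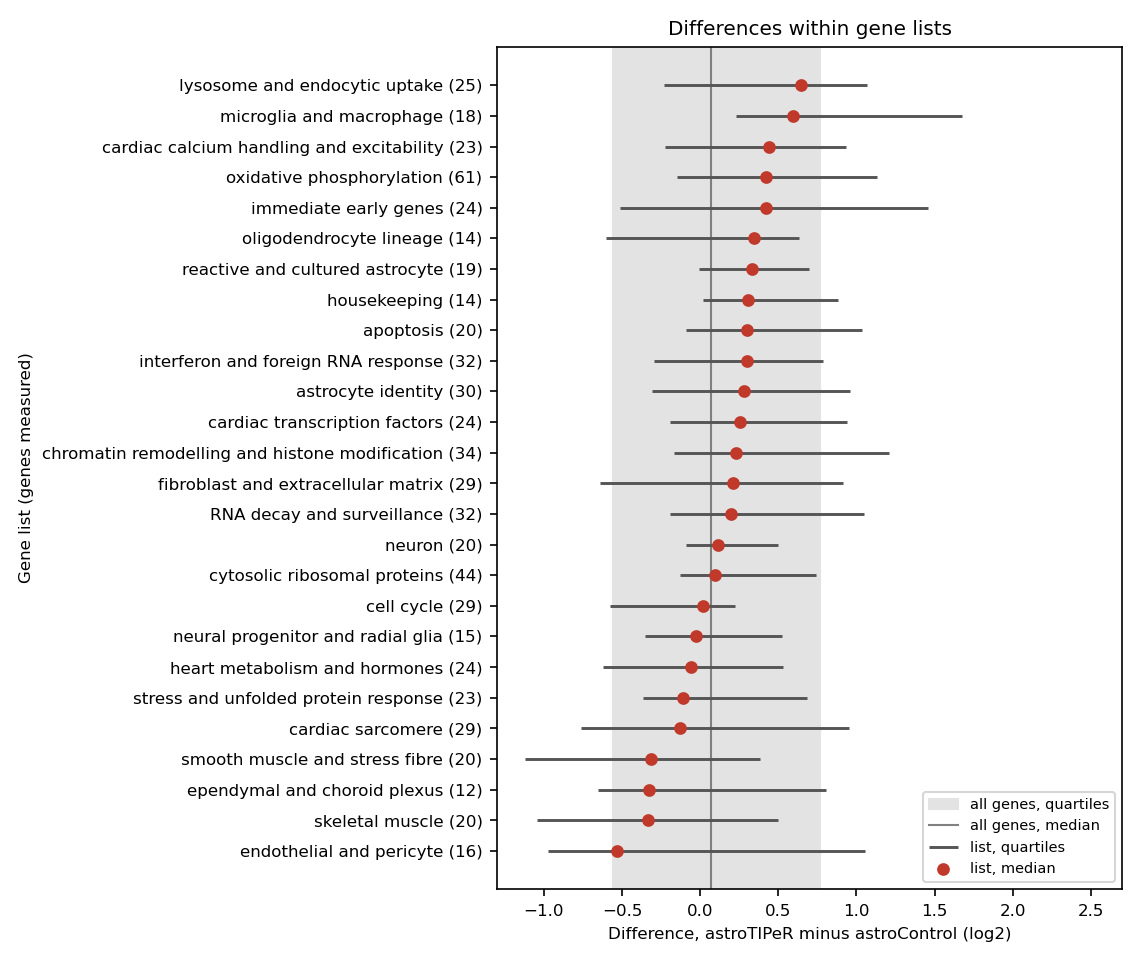
Median difference, astroTIPeR minus astroControl (log2, horizontal axis), of 26 gene lists (vertical axis, with the genes measured), with lines for the quartiles of the members and grey for the quartiles and median of all genes. The list medians run from -0.53 to 0.65, and the lines overlap the grey band for every list.

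Over the 26 lists, 641 genes were measured and 2 were called, Pdgfrb and Crebbp, beside 18 of 18193 genes (0.0989%) when each gene was represented by its probe set of highest mean level. The list medians ran from -0.53 to 0.65, and 18 of 26 were above 0. For 15 of the 26 the sign of the median changed when one or the other control was left out. The highest median, that of lysosome and endocytic uptake, was 0.42 without astroControl 1 and 0.17 without astroControl 2. The median of all genes was 0.07.

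The 6 astroTIPeR cells also differed among themselves. With each gene read on its probe set of highest mean level, the standard deviation over them had a median of 0.82, and 10% of genes were above 1.55. The genes below were picked after their values were seen, for the largest spread. Pikfyve, a lipid kinase of endosomes, was at 10.91, 7.20, 4.71, 12.37, 12 and 3.48 in astroTIPeR 1 to 6, against 5.07 and 3.85 in the controls. Pfdn5, a prefoldin subunit, was at 9.69, 5.38, 2.58, 10.85, 10.36 and 3.24 in the same order, against 2.32 and 3.98 in the controls. AstroTIPeR 1, 4 and 5 were high for both, and astroTIPeR 3 and 6 were at the level of the controls.

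Single cells stood out for other genes. Lrp5, a Wnt coreceptor, was at 13.80 in astroTIPeR 2 and at 4.53 to 6.33 in the other 5. Sec61a2, of the protein translocation channel, was at 13.40 in astroTIPeR 2 and at 3.85 to 5.86 in the other 5. AstroTIPeR 1 was low for Map3k12, a kinase, at 1.91 beside 9.10 to 10.96 in the other 5, and for the actin bundler Pls3, at 1.91 beside 9.79 to 10.54. It also had the lowest mean level of the ribosomal list, at 6.26 beside 7.53 to 8.74 in the other 5, and of the lysosome list, at 6.10 beside 7.81 to 8.77.

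The same transfer had been made into fibroblasts, where cells given fibroblast RNA were the controls, so the controls differ in kind. In fibroTIPeR against fibroControl cells limma called 0 of 34945 probe sets (0%), with 1827 at an unadjusted p under 0.05, so the lack of a call says nothing particular of the 22 genes. There the differences of the 22 ran from -0.70 (Col19a1) to 1.26 (Cd209d). The difference between both transfer effects was tested over 16 cells, and 0 of 34945 probe sets were called in limma, with 2768 at an unadjusted p under 0.05. The smallest adjusted p was that of Hyal5, whose difference was -5.88 in astrocytes and 0.15 in fibroblasts (adjusted p = 0.116 for their difference). Without astroControl 1 the same test called 777 probe sets.

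**Figure D5:**
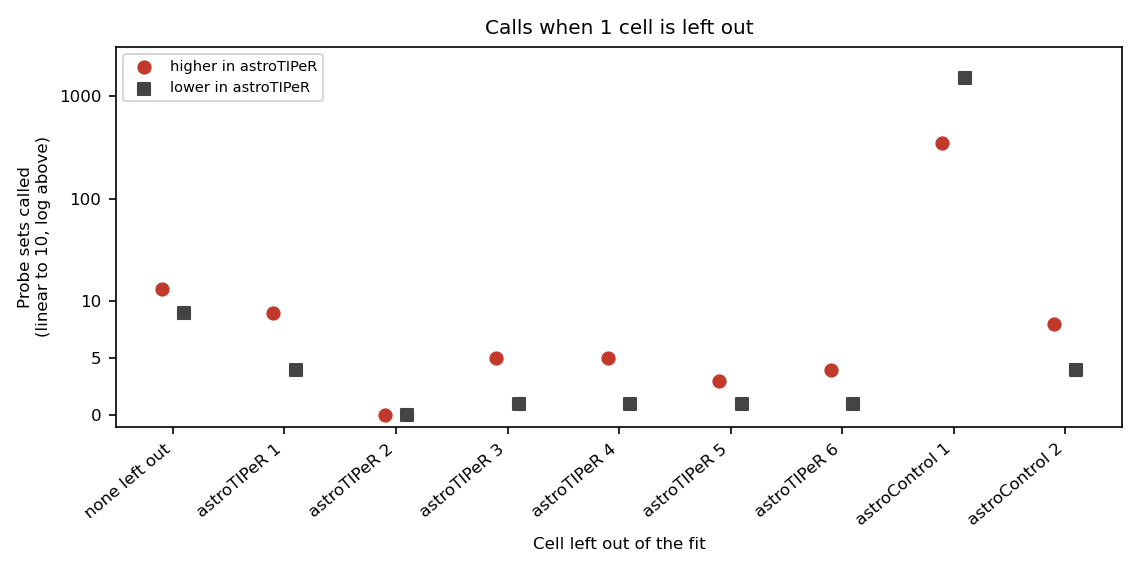
Number of probe sets called (vertical axis, linear to 10 and logarithmic above) when no cell or 1 cell (horizontal axis) is left out of the comparison, with red points for probe sets higher and dark squares for probe sets lower in astroTIPeR cells. The counts are 13 and 9 with all cells, 0 and 0 without astroTIPeR 2, and 348 and 1484 without astroControl 1.

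Every astroTIPeR cell also carried weight. With 1 of them left out, 0 to 13 probe sets were called, and none without astroTIPeR 2, where 3244 had an unadjusted p under 0.05 and the smallest adjusted p was 0.0506. With the Gapdh 3' minus 5' difference as a covariate 0 were called (3289 at an unadjusted p under 0.05, smallest adjusted p = 0.442). That measure did not overlap between the groups, so its share in the 22 calls cannot be told apart from that of the transfer.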

How the data were processed

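The series holds 23 arrays of single mouse cells, and the comparison used 6 astroTIPeR and 2 astroControl arrays, grouped by sample title. The deposited values, for 45101 probe sets, were taken as log2 from their range, since no label or header names the scale. For the authors' probe summary and scaling, a method was not given in the sources used here. Deposited medians were 4.28 to 4.56 on the 8 astrocyte arrays and 5.05 to 5.58 on the other 15. An astrocyte array held only 2425 to 5453 distinct values, so low values are tied. The number of arrays limits the precision.

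Symbols came from the platform annotation. Of the probe sets, 34945 had 1 gene symbol, 932 had several and were left out, and 9160 were unnamed here. The 8 astrocyte arrays were quantile normalized, and the other 15 apart. Groups were compared with lmFit and eBayes (trend) in limma 3.58.1 (R 4.3.3, statmod 1.5.0), with Benjamini-Hochberg adjustment over all 34945 and a threshold of 0.05. Figures used Python 3.11.15 and matplotlib 3.10.9. A gene in a list was read on its probe set of highest mean level. The fit was tested on simulated data. The text names the called, non-overlapping genes of largest difference (at most 12 that rose and 12 that fell), at most 4 called members of a list or else its 2 smallest p, and fixed markers. The members and lists were chosen with earlier results of these data known. Donor genes, microglia genes beyond the rule, and the most variable genes were picked after their values were seen.

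AstroControl 1 and 2 deviated from their group mean with correlations of -0.02 and 0.01 to the astroTIPeR cell of the same number. With 2 controls these deviations mirror each other, so the correlations cannot decide whether the numbers pair the cells. The labels state no pairing, and none was used in the main fit. Alternatives changed the normalization, the probe sets used, the variance model and the covariates, and left out each cell in turn.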

Additional observations from a re-analysis of the deposited data

Results flagged for a closer look

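The 6 astroTIPeR values of 98 reported results were searched for a single cell far from the others by Dixon's ratio at its 95% critical value, and 7 met it. Chance alone would pick out about 1 in 20. Among the called genes, Cldn2 was at 8.93 in astroTIPeR 1, where the median of the 6 was 11.59, and 9930012K11Rik was at 9.88 in astroTIPeR 3, where the median was 10.52. Both of these cells still lay above the 2 astroControl cells. Nr2e1, a nuclear receptor of neural stem cells, was at 2.49 in astroTIPeR 5, beside a median of 4.3. Pdk4 was at 3.03 in astroTIPeR 5, beside a median of 5.28. The tropomyosin gene Tpm4 was at 1.57 in astroTIPeR 1, beside a median of 6.27. Lox was at 5.6 in astroTIPeR 6, beside a median of 9.50. Sdha, a subunit of succinate dehydrogenase, was at 8.32 in astroTIPeR 6, beside a median of 7.06. Of the 7 values, 2 each came from astroTIPeR 1, 5 and 6, and 1 from astroTIPeR 3.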

How the results depend on the processing

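The 22 calls, 13 higher and 9 lower (59.1% higher), moved with the variance model. They became 45 (30 higher, 15 lower) with robust eBayes, and 0 without the trend (4103 at an unadjusted p under 0.05), with array weights (2028), with a minimum change of 2-fold (1125) or with the Gapdh covariate (3289). Median centring gave 35 (25 higher, 10 lower, 71.4% higher) and moved the median difference of all probe sets to 0.14, beside 0.05. All 23 arrays in the fit gave 26, of which 5 were higher and 21 lower (19.2% higher). Probe sets above the median level gave 12 (9 higher, 3 lower), and the mean of a gene's probe sets gave 13 (10 higher, 3 lower). The replicate block gave 4, all higher (0 lower), with 1 of the 22 among them. The labels do not say whether the numbers pair the cells. AstroTIPeR 3 to 6 have no control of the same number, so in that fit the difference rests on the pairs numbered 1 and 2 alone. The fit also leaves little to estimate the spread. The lost calls therefore cannot decide whether the 22 would hold with paired cells. Deposited values (25), normalization of all 23 arrays together (19), 1 probe set a gene (22) and the 18S covariate (23) gave counts within 1.5 times of 22.

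Leaving out 1 cell gave 0 to 1832 calls, 0 to 348 higher and 0 to 1484 lower. The 8 omissions could not turn the direction of the 22 genes, since their groups did not overlap. In the other alternatives that tested them (12 to 14 a gene, and all 14 for 15 genes), 21 of the 22 kept their direction throughout. Ank1 reversed (-0.11) when all its probe sets were averaged. Of 69 named genes not past the threshold, 19 passed it in at least 1 fit, all without astroControl 1, and 22 changed sign in at least 1. Cardiomyocytes against fibroblasts gave 29 calls, 5 without the trend and 2 to 19 with 1 cell left out. The test between astrocytes and fibroblasts gave 0 calls, and 0 to 777 with 1 cell left out. Where no value above shows it, the cause was not tested.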

Other observations

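Without astroControl 2, the control whose array stood apart, 7 of the 12 called probe sets were not among the 22 called with both controls. They were looked up after their values were seen, and each rests on astroControl 1 alone. Dnm1, the neuronal dynamin of endocytosis, was at 9.09 to 10.36 in astroTIPeR cells, against 4.48 in astroControl 1 and 7.67 in astroControl 2. Its difference was 5.48 without astroControl 2 (adjusted p = 0.0256 in limma) and 3.89 with it (adjusted p = 0.107). Tmem41b, a lipid scramblase needed for autophagosomes, was at 9.85 to 10.79 in astroTIPeR cells, against 5.25 and 7.90 in astroControl 1 and 2. These 2 genes separated all 6 astroTIPeR cells from both controls. A probe set of Scn9a, at 9.63 to 11.17 in astroTIPeR cells against 4.71 and 9.93 in astroControl 1 and 2, was also among the 7, in the direction opposite to the fall of the other Scn9a probe set.

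For other genes of the 7 the 2 controls were on different sides. Ulk4, a kinase relative of the autophagy starter Ulk1, was at 5.46 to 7.28 in astroTIPeR cells, against 15.05 in astroControl 1 and 4.81 in astroControl 2. The arginine methyltransferase gene Prmt6 was at 2.32 to 3.70 in astroTIPeR cells, against 8.18 in astroControl 1 and 2.60 in astroControl 2. Rbsn, an effector of endosome fusion, was at 10.05 to 11.60 in astroTIPeR cells, against 4.90 in astroControl 1 and 11.79 in astroControl 2. In Ulk4, Prmt6 and Rbsn the level of astroControl 2 was nearer to the astroTIPeR cells than to the other control.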
